A study of Triticum aestivum with 18 samples.

Results

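Phytochrome A is the far-red light receptor of plants, and the copy described here is the row MSTRG.35870 of a wheat expression table, which carries the description phytochrome A and a gene name on chromosome arm 4AL. It is 1 of 115478 rows. It was chosen with its values in these samples already known, so its levels and differences are given as a description, with no test. The other 8 rows whose description begins with phytochrome were all taken by that description, a rule set with earlier results of these data known. They are 2 further phytochrome A rows (MSTRG.39864 on 4BS and MSTRG.43427 on 4DS), 3 phytochrome C rows (MSTRG.45633 on 5AL, MSTRG.52173 on 5DL and MSTRG.76207, unplaced) and 3 rows for a phytochrome A-associated F-box protein (MSTRG.172 on 1AL, MSTRG.3596 on 1BL and MSTRG.8878 on 1DL). Phytochrome B was not analysed here.

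Phytochromes are proteins with a bound bilin pigment that switch between a form absorbing red light and an active form absorbing far-red light, and the active form moves to the nucleus and changes transcription there. Phytochrome A is the light-labile member of the family: in seedlings of cereals and other plants it builds up in the dark, its protein is degraded in light and its transcript falls on illumination. It senses very weak light and continuous far-red light, such as that below a canopy, whereas phytochrome C is light-stable and is known in wheat for its part in flowering under long days.

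The samples were poly(A) RNA libraries from bread wheat, Triticum aestivum, taken during grain filling, 18 in all, in 6 groups of 3. Grains came from plants whose spikes were shaded and whose leaves were all cut off (shaded grains), from spikes of which 0.5 had been cut away (partial removal), and from plants that grew normally (control grains). Leaves came from plants that lost the whole spike (whole removal), from plants that lost 0.5 of it (partial removal), and from plants that grew normally (control leaves). The labels name no cultivar, no leaf position, no time after the treatment and no time of day, and they leave unstated whether replicate libraries are separate plants. P-values therefore measure the spread between these libraries, which may be technical. Shading was given only together with the loss of all leaves, so the effects of darkness on the spike and of defoliation cannot be told apart, and no group was shaded alone or defoliated alone. The comparisons with control within a tissue share the same control libraries.

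Values are FPKM, in which the fragments of a gene are divided by its transcript length and by the mapped fragments of the library, which allows levels of different genes to be set side by side. One library stands furthest apart. In shaded grain library 2, loci without a gene name took 89.9% of the FPKM sum, and 12276 rows reached an FPKM of 1, against at least 36709 in each of the other 17 libraries. Rows with a gene name share the small remainder of that sum, and values are given both as deposited and as scaled FPKM, which is FPKM divided by a library factor (0.226 in that library) set so that most expressed rows are level across libraries. The scaling was made within each tissue, or over all 18 libraries where leaves are set beside grains. Control grain library 1 was affected to a lesser degree, with 55.4% of its FPKM on loci without a gene name and a grain factor of 0.913. The remaining grain libraries had 24.4% to 37.3% and factors of 1.15 to 1.39, so deposited values of control grain library 1 are also lowered. Read counts were not used, so depth in reads is unknown and no counting interval can be given. Marker genes followed the labelled tissues. The summed FPKM of 78 chlorophyll-binding and Rubisco small subunit rows, scaled over 18 libraries, was 1300 to 7150 in leaves and 4.08 to 53.7 in grains. That of 17 gliadin, glutenin and avenin rows was 875 to 7710 in grains and at most 0.0118 in the leaves of treated plants, but 0, 28.8 and 45.0 in the control leaves.

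Phytochrome A on 4AL stood higher in shaded grains than in the other grains once the libraries were scaled but not clearly higher after partial removal than in control grains. As deposited, its level was 12.4, 3.12 and 12.1 FPKM in the 3 shaded grain libraries, 9.22, 8.68 and 8.94 FPKM in grains after partial removal, and 6.09, 7.44 and 6.92 FPKM in control grains. Shaded libraries 1 and 3 lay above every other grain library, and shaded library 2, the one that stands apart, lay below them all. Scaled within grain, the level was 10.2, 13.8 and 9.66 in shaded grains, 7.29, 6.24 and 7.06 after partial removal, and 6.67, 5.99 and 6.03 in control grains. All 3 shaded libraries then lay above all 6 others, while partial removal and control overlapped. The scaled mean was 11.2 ± 2.26 in shaded grains, 6.86 ± 0.550 after partial removal and 6.23 ± 0.381 in control grains (SD, n = 3 each). The shaded mean was thus 1.80 times the control mean, a log2 difference of scaled FPKM + 1 of 0.74 ± 0.14 (SE of the fit). Against grains after partial removal the shaded mean was 1.64 times as high, at a log2 difference of 0.62 ± 0.14.

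Without shaded library 2 the log2 difference of shaded from control grains was 0.61, and from grains after partial removal 0.49. The deposited values of the other 2 shaded libraries averaged 12.3 FPKM, which is 1.80 times the control mean of 6.81 with no scaling at all. The deposited mean after partial removal was 8.94 FPKM. The control mean includes library 1, with 55.4% of its FPKM on loci without a gene name. Such unscaled rises were not particular to this row. In the same 2 libraries phytochrome C stood at 1.18 (5AL), 1.32 (5DL) and 1.22 (unplaced) times control. Phytochrome A stood at 1.56 (4DS) and 4.03 (4BS) times control, and the F-box rows, near 0 in grain, were lower. With all 3 shaded libraries and no scaling, the difference of the row on 4AL from control was 0.21 and that from partial removal turned to -0.15. After partial removal the level was 1.10 times that of control grains (log2 0.12 ± 0.14), a difference within its own error.

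**Figure D1:**
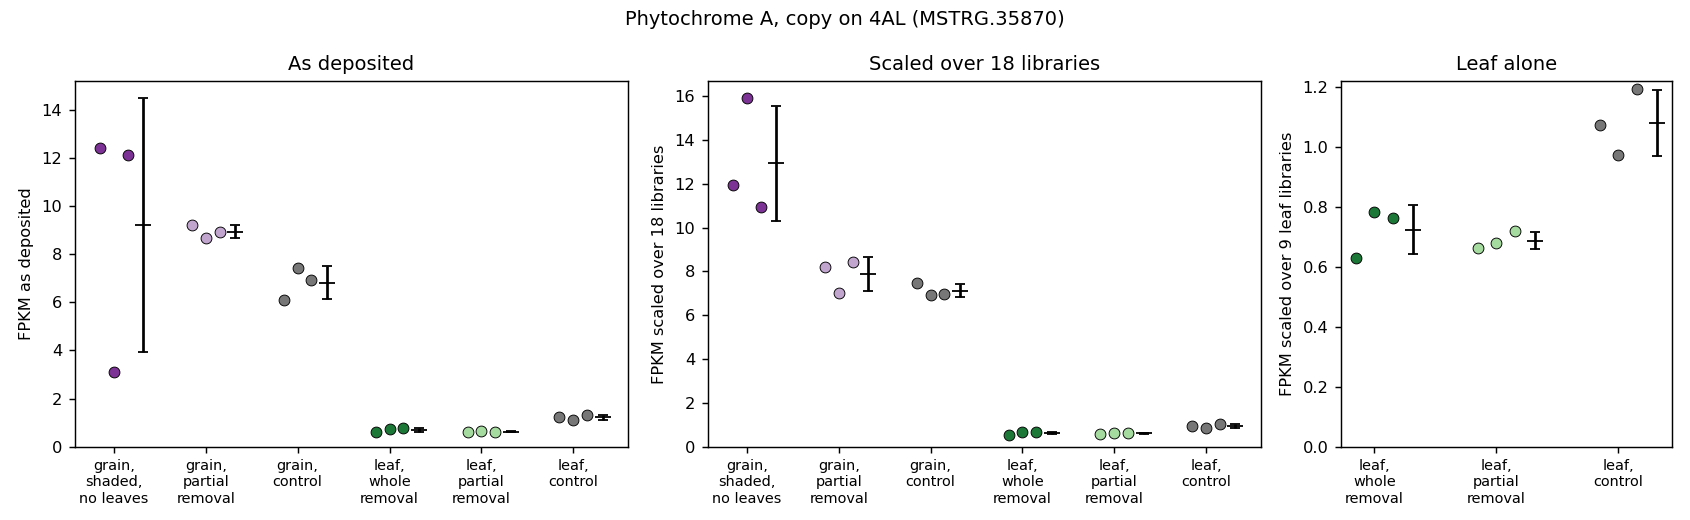
Level of phytochrome A MSTRG.35870 in each library (points), with group mean and SD (bars, n = 3), as deposited (left), scaled over 18 libraries (middle) and scaled over the 9 leaf libraries for leaves alone (right); all axes are linear FPKM. The low shaded grain point at 3.12 FPKM on the left is library 2, which has the highest scaled value, 15.9, in the middle, and on the right the 3 control leaves at 0.974 to 1.19 lie above the 6 leaves of treated plants.

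In leaves the same row was low, and lower after either removal than in control leaves. It was deposited at 0.622, 0.720 and 0.787 FPKM after whole removal, at 0.621, 0.650 and 0.592 FPKM after partial removal, and at 1.21, 1.11 and 1.33 FPKM in control leaves. Scaled within leaf, these were 0.630, 0.782 and 0.762 after whole removal, 0.664, 0.680 and 0.718 after partial removal, and 1.07, 0.974 and 1.19 in control leaves. All 6 libraries of treated plants lay below all 3 controls on either scale, and the 2 removals overlapped each other. The scaled mean after whole removal was 0.671 times that of controls and the mean after partial removal 0.636 times, at log2 differences of -0.27 ± 0.11 and -0.30 ± 0.11. These log2 values understate the change of so low a gene because 1 is added to each level, and with 0.1 added instead they were -0.52 and -0.58. Whole removal differed from partial removal by 0.03 ± 0.11. The row reached an FPKM of 1 in the control leaves alone among leaf libraries, so it entered the leaf fit only through the group in which it was high.

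Storage protein transcripts of the endosperm were present in 2 of the control leaf libraries. Control leaf library 1, in which all 17 gliadin, glutenin and avenin rows summed to 0, had 1.21 FPKM of phytochrome A. The control libraries in which that sum was 28.8 and 45.0 had 1.11 and 1.33 FPKM, and the part of grain RNA in these levels was not tested. The other grain-like list, 23 rows of oil body and late embryogenesis proteins, summed to 270 to 425 after whole removal, 322 to 631 after partial removal and 324 to 426 in control leaves. Although the sums overlapped, the rows present differed. Of the 23 rows, 12 were at 0 in all libraries after whole removal and 11 after partial removal, but 4 in control leaves.

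The difference of this row between grain and leaf was larger than that between any treatment and its control. On the scale over all 18 libraries, control leaves averaged 0.937 ± 0.0982 and control grains 7.13 ± 0.297 (SD, n = 3 each), a level 7.60-fold lower in leaf and a log2 difference of -2.07 ± 0.12. The order of the group means was shaded grain (12.9), grain after partial removal (7.88), control grain (7.13), control leaf (0.937), leaf after whole removal (0.621) and leaf after partial removal (0.610). Neighbours in this order that overlapped were the grains after partial removal with control grains and the 2 treated leaf groups with each other. In the deposited values the order of the means was the same, but shaded grains then overlapped grains after partial removal, and grains after partial removal lay clear of control grains. Among all rows with a mean above 0, phytochrome A lay above 95.4% in shaded grains, 93.3% in grains after partial removal and 91.9% in control grains. In leaves it lay above 46.1% after whole removal, 46.3% after partial removal and 56.8% in control leaves. Partial removal is the 1 treatment given to both tissues, and its log2 effect in leaf minus that in grain was -0.39 ± 0.17 for this row.

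The 3 phytochrome A rows carry names on 4A, 4B and 4D, as the A, B and D copies (homoeologs) of 1 gene in hexaploid wheat do. Such copies are nearly identical and their reads can be counted for the wrong one, which makes the level of any single copy uncertain. The copy on 4DS (MSTRG.43427) had the same order of grain groups as the one on 4AL after scaling, at a lower level, whereas as deposited its shaded mean was 0.931 times that after partial removal. It was deposited at 7.20, 1.42 and 7.37 FPKM in shaded grains, 5.87, 5.57 and 5.73 FPKM after partial removal, and 3.52, 5.45 and 5.00 FPKM in control grains. Scaled, it averaged 6.03 ± 0.239 in shaded grains, 4.39 ± 0.336 after partial removal and 4.20 ± 0.296 in control grains (SD, n = 3 each). The shaded libraries again lay above all others after scaling, with shaded over control at 1.44 times. This copy was chosen by its description and was tested, though through shared reads it is not independent of the row on 4AL. The log2 difference was 0.44 ± 0.09 and did not pass limma's test across all rows (Benjamini-Hochberg adjusted p = 0.0587). Without scaling it turned to -0.03 (adjusted p = 0.987). Against grains after partial removal the difference was 0.38 (limma adjusted p = 0.161), and partial removal against control gave 0.05 (adjusted p = 0.978).

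In leaves the copy on 4DS was close to absent, at 0, 0.0232 and 0.0816 FPKM after whole removal, 0.0270, 0.0570 and 0.106 FPKM after partial removal, and 0.127, 0.182 and 0.267 FPKM in control leaves. The controls were again the higher libraries, but the values are too low to have entered the leaf test. Between tissues, control leaves were 32.6-fold lower than control grains in this copy (means of 0.148 and 4.81 scaled over 18 libraries, log2 -2.34 ± 0.09). It reached an FPKM of 1 in grain libraries alone, so it entered that fit only through the tissue in which it was high, and the difference is given as a description. The copy on 4BS (MSTRG.39864) was low everywhere and was tested in neither tissue. It was deposited at 0.339, 0.103 and 0.589 FPKM in shaded grains, 0.322, 0.310 and 0.349 FPKM after partial removal and 0.103, 0.0303 and 0.212 FPKM in control grains. Its scaled mean was 0.401 ± 0.106 in shaded grains and 0.107 ± 0.0804 in control grains (SD, n = 3 each). In leaves it was at most 0.0727 FPKM after whole removal and 0.0399 FPKM after partial removal, and 0.0869 to 0.204 FPKM in control leaves.

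Shares among the 3 copies need no scaling between libraries, since they are taken within one. The copy on 4AL made up 63.3% ± 3.52 of the phytochrome A FPKM in shaded grains, 59.6% ± 0.153 after partial removal and 59.1% ± 3.13 in control grains (SD, n = 3 each). The shaded libraries spanned 60.4% to 67.2% and the controls 57.0% to 62.7%, so these overlapped. In leaves it made up 92.5% ± 7.81 after whole removal, 86.8% ± 5.81 after partial removal and 78.2% ± 1.10 in control leaves. The copy on 4DS held most of the rest in grain, at 34.5% in shaded grains, 38.2% after partial removal and 39.9% in control grains, and 3.92% to 12.2% in the 3 leaf groups. The copy on 4BS held 1.01% to 2.28% in the 3 grain groups and 9.58% ± 4.09 in control leaves. The balance of the copies thus differed between the tissues in every library, with all 9 leaf libraries at 77.0% or more on 4AL and all 9 grain libraries at 67.2% or less.

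**Figure D2:**
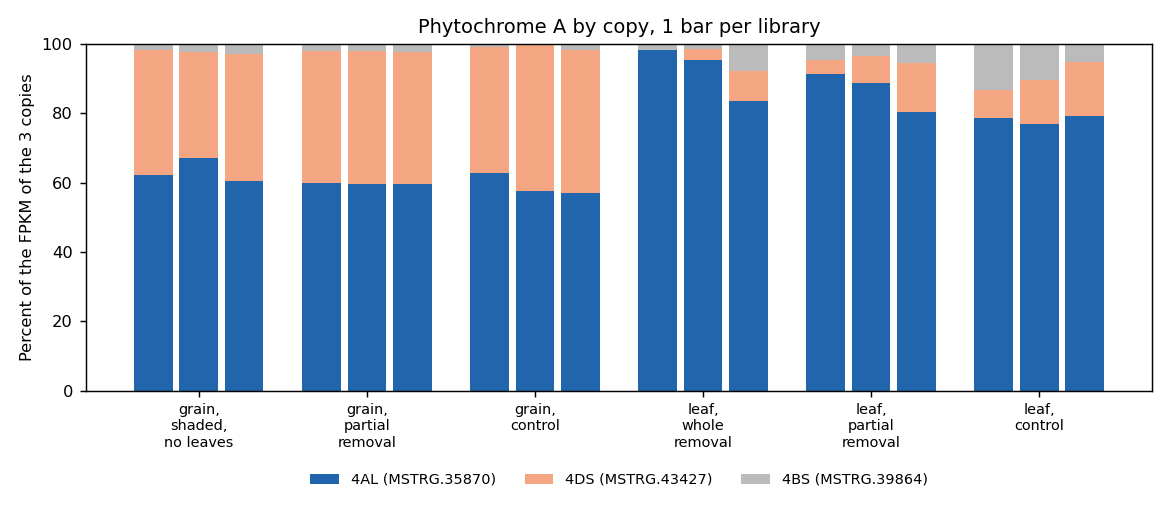
Share of each copy in the phytochrome A FPKM of each library (1 bar per library, percent of the sum of the 3 copies), blue for 4AL, orange for 4DS and grey for 4BS. The blue part takes 57.0% to 67.2% of each grain bar and 77.0% to 98.3% of each leaf bar.

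Phytochrome C is the other receptor of the family among these rows. In grain its 3 copies together, scaled over 18 libraries, summed to 14.9 ± 0.551 in shaded grains, 14.0 ± 0.569 after partial removal and 13.4 ± 0.208 in control grains (SD, n = 3 each). No copy passed the test in shaded against control grains. The log2 differences were 0.06 on 5AL, 0.18 on 5DL and 0.12 for the unplaced copy (limma adjusted p = 0.793, 0.314 and 0.541), and all 3 turned to -0.39, -0.24 and -0.23 without scaling, when the median of all rows shifted by -0.31. In all, 0 of the 4 tested phytochrome rows other than the one on 4AL were called between shaded and control grains, where 1.82% of 45784 rows were called and 7474 rows had an unadjusted p under 0.05. The counts were also 0 of 4 for partial removal against control (0.0284% of all rows called, 2970 with an unadjusted p under 0.05) and for shaded against partial removal (0.190%, 5830 with an unadjusted p under 0.05).

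The ratio of the summed phytochrome A to the summed phytochrome C within a library is also free of scaling. It was 1.26, 1.56 and 1.26 in shaded grains, 0.946, 0.879 and 0.994 after partial removal, and 0.873, 0.894 and 0.931 in control grains. All 3 shaded libraries lay above 1 and all 6 other grain libraries below 1, with shaded library 2 the highest. Partial removal and control overlapped. The ratio holds the row on 4AL, which was chosen for its level in shaded grains, so it is a description and was not tested. In leaves phytochrome C exceeded phytochrome A in every library. The ratio was 0.0839, 0.117 and 0.141 after whole removal, 0.108, 0.0789 and 0.0878 after partial removal, and 0.114, 0.101 and 0.171 in control leaves, with all 3 groups overlapping. The summed phytochrome C, scaled over 18 libraries, was 6.04 ± 0.553 after whole removal, 7.88 ± 1.71 after partial removal and 9.62 ± 1.70 in control leaves (SD, n = 3 each).

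**Figure D3:**
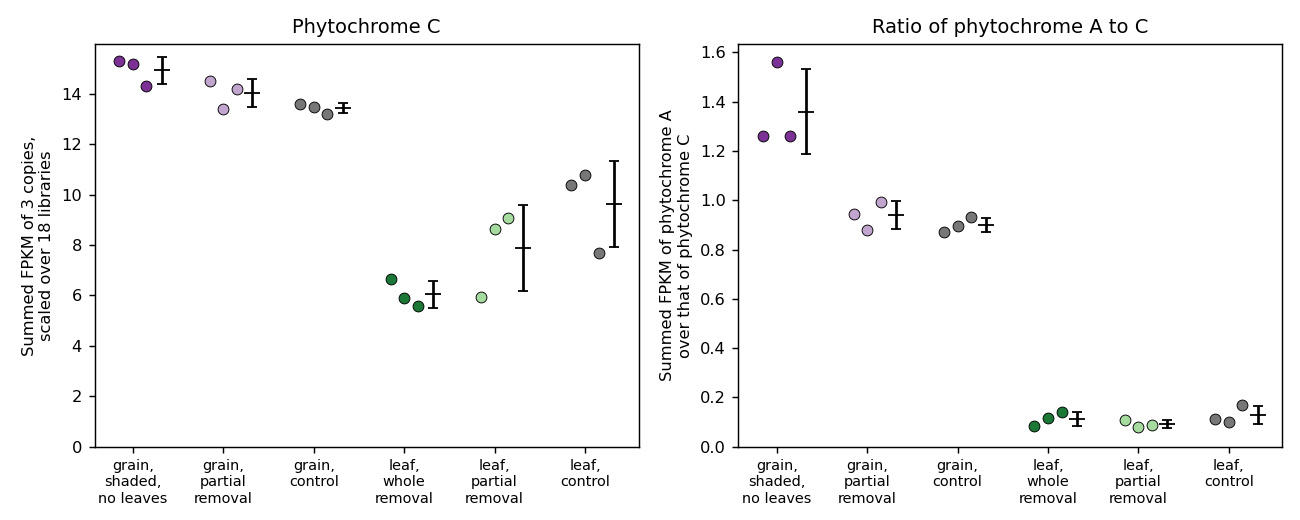
Summed level of the 3 phytochrome C copies (left, FPKM scaled over 18 libraries) and the ratio of summed phytochrome A to summed phytochrome C (right) in each library (points), with group mean and SD (bars, n = 3), on linear axes. On the right the 3 shaded grain libraries lie at 1.26 to 1.56, above the other grains at 0.873 to 0.994 and the leaves at 0.0789 to 0.171.

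In leaves the phytochrome C copy on 5AL (MSTRG.45633) fell after whole removal of the spike. Its scaled level was 2.16, 2.48 and 2.33 after whole removal, 2.81, 3.81 and 3.99 after partial removal, and 4.98, 5.14 and 4.06 in control leaves. The whole removal libraries lay below all others, and those after partial removal lay between and did not reach the controls. Whole removal against control gave means of 2.33 ± 0.161 and 4.72 ± 0.583 (SD, n = 3 each), a log2 difference of -0.78 ± 0.14 (limma adjusted p = 0.00566). The call was kept under all 14 alternative settings, with log2 values of -0.99 to -0.73. Partial removal against control did not pass (log2 -0.34, adjusted p = 0.378), nor did whole against partial removal (-0.44, adjusted p = 0.0631).

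The other phytochrome C copies did not pass. The copy on 5DL (MSTRG.52173) averaged 2.16 ± 0.474 after whole removal and 3.32 ± 0.860 in control leaves (SD, n = 3 each), a log2 difference of -0.44 ± 0.19 (limma adjusted p = 0.144). Control leaf library 3 was the low control here, at 2.33 against 3.85 and 3.77 in the other controls, and without it the difference was -0.62 and passed (adjusted p = 0.0417). The unplaced copy MSTRG.76207 differed by -0.18 (adjusted p = 0.502). After whole removal 1 of the 4 tested phytochrome rows had fallen against control and none had risen, where 20.3% of 48696 rows were called and 9.51% were called lower. After partial removal the count was 0 of 4, where 1.64% of rows were called and 5894 had an unadjusted p under 0.05. Without scaling, when the median of all rows shifted by -0.23 and most calls over all rows were lower, it was 2, both lower. They were phytochrome C on 5AL (limma adjusted p = 0.0494) and the F-box protein on 1AL (adjusted p = 0.0229). No library after partial removal helped the F-box row into the fit, so the filter favoured its lower level there.

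**Figure D4:**
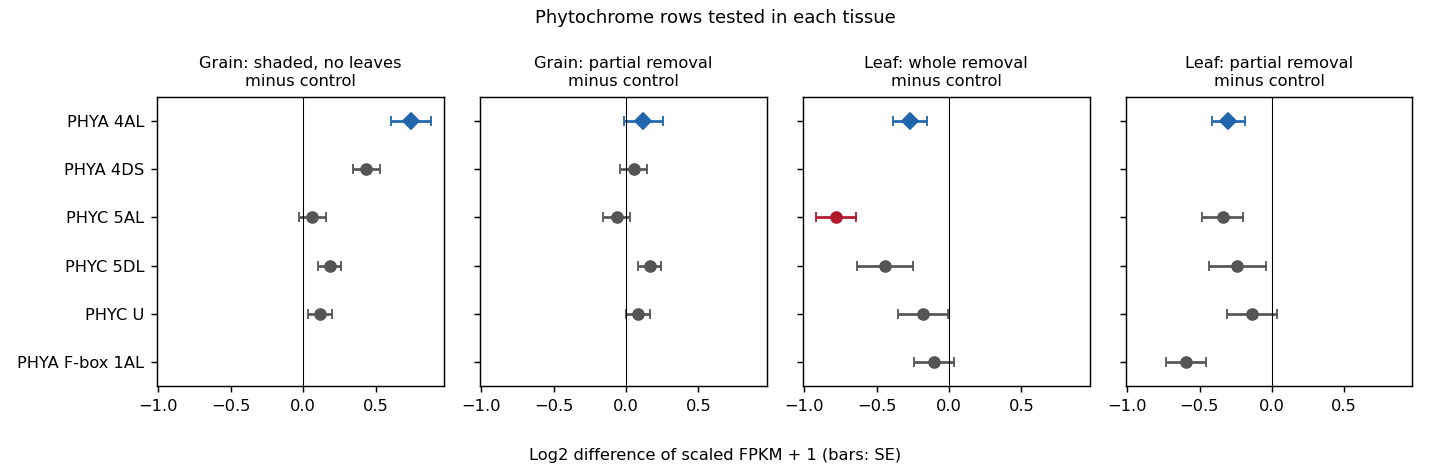
Log2 difference of scaled FPKM + 1 (bars, SE of the fit) for the phytochrome rows that were fitted in each tissue, in 4 comparisons with control. Red points passed limma's test at an adjusted p under 0.05, grey points did not, and the blue diamond is the copy on 4AL, shown without a test; phytochrome C on 5AL in leaves after whole removal, at -0.78, is the red point.

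Between the tissues, 2 of the 3 phytochrome C copies were lower in leaf. Control leaves averaged 4.10 and control grains 6.12 for the copy on 5AL (log2 -0.49 ± 0.11, limma adjusted p = 0.00131), and 2.88 in leaves against 4.72 in grains for the copy on 5DL (log2 -0.58 ± 0.15, adjusted p = 0.00262). Both calls were lost without scaling, at adjusted p = 0.806 and 0.601, when the median of all rows moved by 0.27. The unplaced copy did not pass (log2 0.02, adjusted p = 0.914). In all, 3 of the 5 phytochrome rows fitted between the tissues were lower in leaf and 1 was higher, where 69.2% of 61068 rows were called. The copy of phytochrome A on 4DS and the F-box protein on 1AL entered through 1 tissue alone, which leaves 2 lower and 0 higher among the other 3 rows. The difference of the partial removal effect between leaf and grain was called for 0 of these 5, where 0.375% of rows were called and 6982 had an unadjusted p under 0.05.

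The row at a higher level in leaf was the phytochrome A-associated F-box protein on 1AL (MSTRG.172). In Arabidopsis the protein of this name, EID1, is part of a ubiquitin ligase that dampens phytochrome A signalling. Control leaves averaged 0.996 and control grains 0.0817 (log2 0.89 ± 0.10), a description, since it reached an FPKM of 1 in leaf libraries alone. In leaves it was deposited at 0.801, 1.26 and 0.892 FPKM after whole removal, 0.400, 0.403 and 0.341 FPKM after partial removal, and 1.17, 1.43 and 1.29 FPKM in control leaves. The 3 libraries after partial removal lay below all 6 others, whereas whole removal overlapped the controls. Partial removal against control gave scaled means of 0.421 ± 0.00682 and 1.15 ± 0.108 (SD, n = 3 each) and did not pass limma's test (log2 -0.60 ± 0.14, adjusted p = 0.0848), though it did without scaling (adjusted p = 0.0229). It reached an FPKM of 1 in the control leaves and in 1 library after whole removal, so no library after partial removal helped it into the fit. Whole against partial removal gave 1.01 ± 0.306 and 0.421 ± 0.00682 and passed (log2 0.49 ± 0.14, adjusted p = 0.0406), as the 1 called of 4 phytochrome rows in a comparison where 16.5% of all rows were called, 8.55% higher and 7.94% lower. That call was lost in 9 of 14 alternative settings, at adjusted p-values of up to 0.124. The 1BL and 1DL rows of this protein were tested in neither tissue. The 1BL row was at 0 FPKM in 2 control leaf libraries and at 1.55 FPKM in library 3.

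The chromophore of phytochrome is made from heme by heme oxygenase and then by phytochromobilin:ferredoxin oxidoreductase (HY2 in Arabidopsis). No row description matched heme oxygenase, so it was not analysed here, and the second enzyme had 3 rows. On 3AL (MSTRG.23305) its scaled level was 2.10, 1.49 and 1.31 after whole removal, 0.913, 1.19 and 1.32 after partial removal, and 0.759, 0.645 and 0.474 in control leaves. The controls lay below all 6 libraries of treated plants. Whole removal against control gave 1.63 ± 0.414 and 0.626 ± 0.144 (SD, n = 3 each), a log2 difference of 0.69 ± 0.15. The row reached an FPKM of 1 in 2 libraries after partial removal and in no control, so it entered the fit only with the whole removal libraries, in which it was high, and the difference is a description. Partial removal against control did not pass limma's test (0.40, adjusted p = 0.335). The row on 3DL (MSTRG.31119, log2 0.42, limma adjusted p = 0.0527) did not pass after whole removal. On 3B (MSTRG.29447) the log2 difference was 0.35, at means of 1.17 ± 0.269 after whole removal and 0.72 ± 0.321 in control leaves (SD). The 3B row too would not have entered the fit without the whole removal libraries, so its difference is a description. In shaded against control grains the 3 rows gave 0.05, -0.11 and 0.31 for 3AL, 3DL and 3B, with none called. In control leaves against control grains all 3 were lower, with the largest difference on 3B (log2 -0.75, adjusted p = 8.08e-05, but 0.0987 without scaling).

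Phytochrome signals run with those of other light receptors into a shared set of regulators, and 54 rows matched the lists used for these. No row description matched the patterns for phytochrome-interacting bHLH factors or early light-induced proteins, so these were not analysed here. The 3 rows of the far-red signalling list were too low to be tested. In shaded against control grains 0 of 35 tested rows were called, where 1.82% of all rows were called. Their median log2 difference was 0.03 beside 0.003 over all rows. Some rows of these lists are named here after their values were seen. Cryptochrome-2, a blue-light receptor, had higher means in shaded grains in all 3 copies, also as deposited, without passing the test. The copy on 6DL (MSTRG.62461) was at 5.68, 6.62 and 6.83 scaled FPKM in shaded grains and at 3.91, 3.54 and 4.91 in control grains (log2 0.53 ± 0.13, limma adjusted p = 0.0801). After scaling, the shaded libraries lay above the controls for this copy and for those on 6BL (MSTRG.58290, 0.47, adjusted p = 0.161) and 6AL (MSTRG.56809, 0.41, adjusted p = 0.0737). The deposited means of the copies on 6DL, 6BL and 6AL were 5.66, 4.79 and 2.57 FPKM in shaded grains and 4.53, 4.06 and 2.20 FPKM in control grains. These shaded means include library 2, with its factor of 0.226, which as deposited lay below the control libraries in the copy on 6DL. The ultraviolet-B receptor UVR8 (MSTRG.15234) lay the other way at -0.69 ± 0.15 (adjusted p = 0.0623). The clock protein REVEILLE 6 (MSTRG.68377) was at -0.48 (adjusted p = 0.121). Counts for partial removal against control grains and for shaded grains against partial removal were also 0 of 35, where 0.0284% and 0.19% of all rows were called.

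In leaves after whole removal 5 of 43 tested rows of these lists fell and 1 rose, where 9.51% of all rows fell and 10.8% rose, and the 1 that rose was the oxidoreductase on 3AL. That row and 1 of the 5 that fell, a cryptochrome DASH, entered the fit only with the libraries of the group in which they were higher. Among the 40 rows of which this was not so, 4 fell and 0 rose, and 3 of these 4 were among 9 blue-light and UV receptor rows. Phototropin-2, the receptor for phototropism and chloroplast movement, stood at 13.1, 8.69 and 8.25 scaled FPKM after whole removal and at 20.5, 22.4 and 19.3 in control leaves in the copy on 2DL (MSTRG.19026, log2 -1.01 ± 0.28, limma adjusted p = 0.0324). The copy on 2AL (MSTRG.12423) fell by 1.15 ± 0.33 (adjusted p = 0.0363), and that on 2BL (MSTRG.14820) did not pass (-0.83, adjusted p = 0.0676). The first of these calls was lost in 8 of 14 alternative settings and the second in 7. Adagio protein 3 (MSTRG.35293), a blue-light sensing F-box protein that acts on the clock and flowering in Arabidopsis, was at 0.739, 0.344 and 1.98 after whole removal and at 7.12, 8.39 and 6.93 in control leaves (log2 -2.15 ± 0.58, adjusted p = 0.0312, lost in 6 of 14 settings). The time of day of sampling is not in the labels, and its part in the level of this and other clock genes was not tested. Cryptochrome DASH on 7DL (MSTRG.72295), of a family that repairs DNA in light, averaged 0.516 after whole removal and 1.64 in control leaves (log2 -0.79 ± 0.14). It reached an FPKM of 1 in the control leaves alone among leaf libraries, so it had to be higher there, and it dropped out of the fit when any 1 control leaf library was left out. A pseudo-response regulator, of a family of clock repressors, fell by 0.82 ± 0.19 (adjusted p = 0.0178, lost in 4 of 14 settings). It averaged 0.555 scaled FPKM after whole removal, 1.76 after partial removal and 1.8 in control leaves. No library after whole removal helped it into the fit, so the filter favoured its lower level there. It is still counted among the 40 rows, since libraries after partial removal also reached an FPKM of 1.

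The remaining lists showed no calls in treated leaves against controls. None of 17 rows of the COP1 and COP9 signalosome list passed after whole removal, nor did any of 6 rows of HY5 and B-box factors, the targets that COP1 marks for breakdown. In that comparison 20.3% of all rows were called. After partial removal 0 of 43 rows were called against control, where 1.64% of all rows were called. Whole against partial removal gave 1 lower of 43, where 16.5% of all rows were called and 7.94% were called lower. It was the same pseudo-response regulator (log2 -0.83, limma adjusted p = 0.0207), whose lower level after whole removal the filter favoured.

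**Figure D5:**
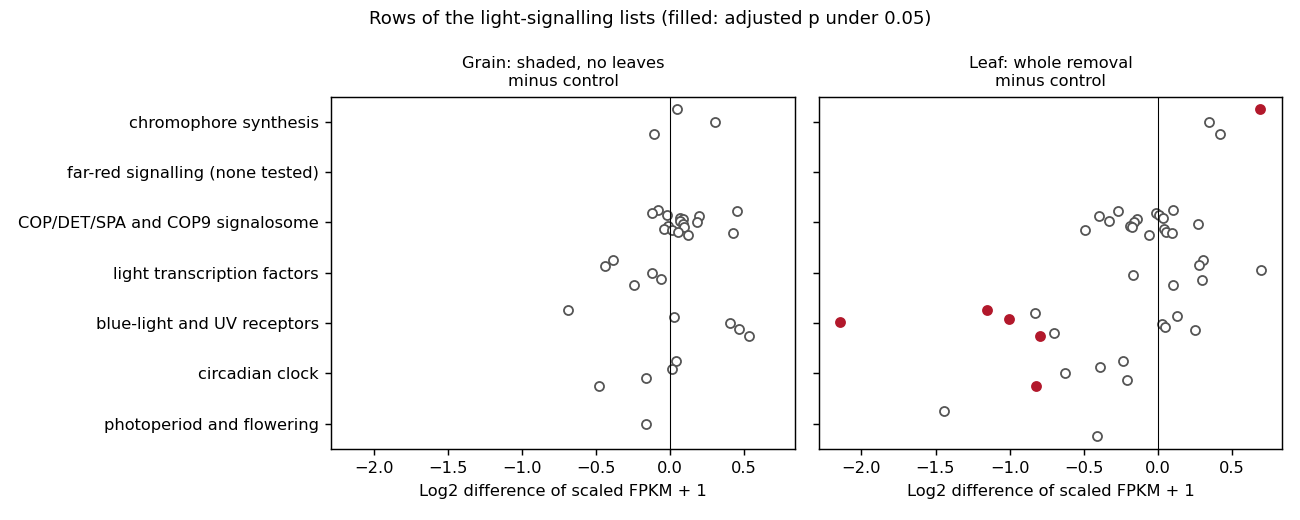
Log2 difference of scaled FPKM + 1 for each tested row of the light-signalling lists, 1 point per row, in shaded against control grains (left) and in leaves after whole removal against control leaves (right). Filled red points passed limma's test at an adjusted p under 0.05: none of 35 rows on the left, and 6 of 43 on the right, of which 4 are blue-light and UV receptors; cryptochrome DASH at -0.79 and the oxidoreductase at 0.69 are red points that entered the fit only with the group in which they were higher.

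Between control leaves and control grains 18 of 44 rows were higher in leaf and 15 lower, where 34.3% of all rows tested were higher and 34.9% lower. Of these, 9 of the higher rows and 1 of the lower reached an FPKM of 1 in too few libraries of the other tissue to enter the fit without the tissue in which they were high. Among the other 34 rows 9 were higher in leaf and 14 lower. Phototropin-2 on 2DL averaged 18.0 in control leaves and 0.249 in control grains (scaled over 18 libraries), cryptochrome DASH on 7AL (MSTRG.64919) 1.79 in leaves and 0 in grains, and HY5 on 6DS (MSTRG.63922), an activator of light-responsive genes, 2.52 in leaves and 0.160 in grains. The pseudo-response regulator averaged 1.56 in leaves and 0.0892 in grains. These 4 entered the fit only with the leaf libraries and are given as levels.

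Of the 5 blue-light and UV receptor rows that did not depend on 1 tissue, 1 was higher in leaf and 3 were lower. Adagio protein 3 was higher in leaf by 1.73 on the log2 scale (limma adjusted p = 0.00331), and cryptochrome-2 on 6DL was lower (-1.56, adjusted p = 3.77e-08). Of 17 rows of the COP1 and COP9 signalosome list 4 were higher in leaf and 7 lower. COP1 on 6AL (MSTRG.56260), the ubiquitin ligase of that list, was higher by 0.96 (adjusted p = 3.9e-06), and constitutive photomorphogenesis protein 10 (MSTRG.22164), which works in a complex that assists it, by 0.81 (adjusted p = 0.000368). COP9 signalosome subunit 1 (MSTRG.76101) was lower at -1.31 (adjusted p = 0.000223) and DDB1- and CUL4-associated factor homolog 1 (MSTRG.19115) at -1.09 (adjusted p = 2.7e-08). Both of these calls were lost without scaling, at adjusted p = 0.110 and 0.0656. Among the light transcription factors, HY5-like on 3AS (MSTRG.25385) was lower in leaf at -0.63 (limma adjusted p = 0.0366), a call lost in 5 of 23 alternative settings. They were no filter and no scaling (adjusted p = 0.0576 and 0.32), and leaving out control grain library 3, control leaf library 1 or control leaf library 3 (0.18, 0.0703 and 0.13). The clock genes TOC1 (MSTRG.59753) and the early flowering 3 copies on 1BL (MSTRG.3634) and 1AL (MSTRG.1444) were called higher in leaf by 1.32, 0.85 and 0.84. The flowering signal FT on 7BS (MSTRG.71325) was higher in leaf by 3.41 (adjusted p = 0.000518).

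Rows were ranked by how closely their levels followed phytochrome A on 4AL, using Pearson's r of log2(scaled FPKM + 1) among 7329 other rows with an informative description and a mean of at least 1. These values describe the 18 libraries and carry no p, since the points share tissue, treatment and library, and the gap between grain and leaf sets most of them. The phytochrome A copy on 4DS had r = 0.994, at rank 2, whereas phytochrome C had 0.920 on 5DL, 0.884 on 5AL and 0.523 for the unplaced copy. Phytochrome rows apart, the highest was DDB1- and CUL4-associated factor homolog 1 (MSTRG.19115, r = 0.996), a substrate adaptor of a ubiquitin ligase and a member of the COP1 list by its description. It was at 6.89, 7.72 and 6.84 scaled FPKM in shaded grains, 5.37, 4.70 and 5.11 after partial removal, and 5.40, 4.61 and 4.88 in control grains, and shaded against control did not pass (log2 0.45 ± 0.10, limma adjusted p = 0.0614; -0.03 without scaling). A WAT1-related protein (MSTRG.66000), alpha-galactosidase 3 (MSTRG.76436), the molybdopterin biosynthesis protein CNX1 (MSTRG.12337) and ABC transporter F family member 3 (MSTRG.58694) each had r = 0.992. GBF1 (MSTRG.1457), ent-kaurene oxidase (MSTRG.76653), an enzyme of gibberellin synthesis, and a peroxidase (MSTRG.64804) each had r = 0.991. All 8 were higher in grain than in leaf. By Spearman's rank correlation alpha-galactosidase 3 was at rank 271 and the others at ranks 7 to 44.

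Over the 9 grain libraries and 6463 rows, the same DDB1- and CUL4-associated factor homolog 1 came first (r = 0.977), followed by a phosphotransferase (MSTRG.8812, 0.970), sterol 3-beta-glucosyltransferase UGT80A2 (MSTRG.21928, 0.965), translation initiation factor 3 subunit B (MSTRG.52178, 0.963) and an oligosaccharyltransferase subunit 1A (MSTRG.44655, 0.952). Without shaded library 2 these 5 were at ranks 2, 8, 36, 33 and 101, with r of 0.981, 0.963, 0.933, 0.934 and 0.888. With all 9 grain libraries the phytochrome A copy on 4DS was at rank 26 (r = 0.924). Over the 9 leaf libraries and 6642 rows, a serine/threonine-protein kinase (MSTRG.18326) had r = 0.995, a formin-like protein (MSTRG.62162) 0.977 and a lipoxygenase (MSTRG.11562) 0.965. A cation/H(+) antiporter 20 (MSTRG.9414) had 0.950 and the cytochrome P450 CYP710A8d (MSTRG.33489) 0.949. By Spearman's rank correlation these 5 leaf rows, in the same order, were at ranks 1, 8, 23, 40 and 196. That kinase averaged 1.76 after whole removal, 1.75 after partial removal and 2.58 in control leaves, scaled over 18 libraries.

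Marker sums of the grain groups stand beside the phytochrome A levels, and of these only the storage proteins kept all 3 groups apart. The 17 storage protein rows summed to 875 to 2190 in shaded grains, 2270 to 3040 after partial removal and 5580 to 7710 in control grains (FPKM scaled over 18 libraries). Embryo and aleurone markers spanned 1340 to 1480 in shaded grains, 1530 to 1840 after partial removal and 1480 to 2560 in control grains, and cell division markers 67.2 to 106 in shaded grains, 84.4 to 140 after partial removal and 87.5 to 191 in control grains. In bulk grain, more cells of one kind and more RNA per cell cannot be told apart, and the part of these tissue shares in the level of phytochrome A was not tested. In leaves the 4 senescence markers summed to 33.6 to 74.5 after whole removal, 186 to 317 after partial removal and 122 to 195 in control leaves, and their part in the level of phytochrome A was not tested either.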

How the data were processed

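Per the labels' protocols, poly(A) RNA was sequenced as paired reads, and per the submitters' processing notes the authors used HISAT, StringTie and edgeR, without versions. The genome build is not given in the sources used here. The deposited table holds gene FPKM computed by the authors. Only gene names in the TGACv1 form and their chromosome arms were used, with no coordinates or sequences. Strand is not stated, so reads of overlapping antisense genes may be included.

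From these values, each tissue was fitted with limma 3.58.1 in R 4.3.3. Rows reaching an FPKM of 1 in 3 or more libraries were kept, and library factors were medians of the ratios to each row's geometric mean (46922 rows above 0 in all leaf libraries, 44129 in grain, 49093 over all 18). The model, on log2(scaled FPKM + 1), had group means and a variance trend. P-values were adjusted by Benjamini-Hochberg over all tested rows, with calls under 0.05. Levels between tissues came from 1 fit of 18 libraries, over rows at 1 or more in at least 3 of them. The code was checked on simulated data with changes planted in rows of moderate or high level, the other rows being unchanged. Of planted log2 changes of 1, 24% were called in leaves after whole removal against control and 52% in shaded against control grains. For changes of 2 these were 81% and 83%, so a row that was not called may still differ.

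Phytochrome rows, light lists and marker lists are text patterns on descriptions, which 12901 rows carry. They were chosen with earlier results of these data known. From each light list, up to 4 called rows per comparison with groups that do not overlap were to be named, by size, once per description; rows named beside them were chosen after their values were seen. The nearest rows were the 8 (all libraries) or 5 (per tissue) highest in r. Replicate numbers pair no samples. Alternatives were a pseudocount of 0.1, no filter, no scaling, quantile normalization, a replicate block and each library left out.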

Additional observations from a re-analysis of the deposited data

How the results depend on the processing

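No call changed direction under any setting, and quantile normalization left every call and count on its side. Without scaling, differences of shaded grains that were not called turned sign, as for the copy on 4DS (MSTRG.43427, -0.03) and the phytochrome C copies. For phytochrome A on 4AL, leaving out any 1 library kept each log2 difference within its spread (0.61 to 0.84 for shaded minus control grains). Without any 1 control leaf library the row no longer entered the leaf fit. A pseudocount of 0.1 gave -0.52 (whole removal minus control leaf), -0.58 (partial removal minus control leaf), -2.80 (control leaf minus control grain) and -0.68 (partial removal effect in leaf minus grain). No scaling gave -0.38, -0.45, -1.81 and -0.80 for these 4, and 0.21, 0.35 and -0.15 for shaded minus control, partial removal minus control and shaded minus partial removal in grain. The median of all rows then shifted by -0.15, -0.23, 0.27, -0.36, -0.31, 0.18 and -0.49 in these comparisons.

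Among the other phytochrome rows, the 1 call of whole against partial removal was 0 with no filter and with a replicate block, and 0 to 2 without single libraries. Partial removal against control leaf had 2 calls and control leaf against grain 2 (main 4) without scaling, and whole removal against control had 1 to 2 without single libraries. Over all rows, leaf after partial removal had 799 calls (330 with no filter, 2046 with no scaling, of which 577 higher and 1469 lower against 535 and 264, and 186 to 850 without single libraries). Shaded minus control grain had 835 (414 with no filter, 510 with no scaling, 388 with the block, 342 to 618 without single libraries). Grain after partial removal had 13 (6, 108 and 2, then 8 to 42), and shaded minus partial removal 87 (28, 386 and 13, then 21 to 127). Without single libraries whole removal had 5826 to 9762 calls against control and 4104 to 9683 against partial removal. The tissue difference of the partial removal effect had 229 (54 with the pseudocount of 0.1, and 116 to 620 without single libraries, the highest without shaded grain library 2). Same-numbered libraries correlated at -0.37 to 0.12 in their deviations, so the block pairs only numbers. Shaded grain library 2 and the low level of phytochrome A in leaf limit the precision.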
